A study of Mus musculus with 2 samples.

Results

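Ribosome biogenesis and RNA polymerase I genes encode the nucleolar machinery that makes ribosomal RNA and assembles it into ribosomal subunits. The genes described here were the rows of the count tables whose symbol was on a list of 54 nucleolar processing factors, small nucleolar ribonucleoprotein (snoRNP) proteins and RNA polymerase I genes. All 54 were found, each on 1 row, among 23282 gene rows. The cells were naïve CD4 T cells from the spleens of mice carrying floxed alleles of *Fak* (*Fak* fl/fl), transduced with a control retrovirus or with a retrovirus that expresses Cre recombinase (RV-Cre). Cells of both conditions were activated through CD3 (10 μg/ml of antibody) and CD28 (5 μg/ml), and the methods place transduction after the start of activation. Culture under Th17 conditions then lasted 3 days, with IL-6 at 50 ng/ml, TGFβ1 at 1 ng/ml, TNF-alpha at 1 ng/ml and IL-1beta at 2 ng/ml. Antibodies against IFNγ and IL-4 were added at 5 μg/ml each. The methods describe sorting of the transduced cells by GFP. The comparison asked which transcripts differ in Th17 cells that received RV-Cre, and it rests on 1 library per condition. Differences between them therefore stand without replicates, and p-values were not computed. Cre came together with the loss of *Fak*, and the effect of Cre itself cannot be told apart from it here. The control is labelled WT in its genotype field and *Fak* fl/fl with control retrovirus in its title, and the title was followed. The methods give female mice aged 6 to 8 weeks as the source of naïve CD4 T cells, without naming the strain in that place, and the number of animals behind each library is not given in the sources used here.

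Ribosome production starts in the nucleolus, where RNA polymerase I copies the ribosomal DNA into a long precursor. Box C/D and box H/ACA snoRNPs modify that precursor, and large assemblies of processing factors fold and cut it while ribosomal proteins join. Pre-ribosomal particles for the small and the large subunit then mature along separate routes and leave the nucleus. Activated T cells are known to enlarge their nucleoli before they divide, and the transcription factor MYC is known to drive many of these genes.

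The libraries held 13799264 reads (control) and 12305010 reads (RV-Cre), counted near the 3′ ends of transcripts. Counts were scaled with TMM factors, and a ratio is the normalized count in the RV-Cre library over that in the control library. The log2 ratio was taken from log2(normalized count + 1). Parentheses after a ratio or share give its 95% interval (exact, Clopper-Pearson), which reflects the counting of reads in these 2 libraries and nothing of the variation between cultures. Paired read numbers are given for the control first and RV-Cre second. *Ptk2*, the gene for FAK, had 110 and 31 reads, a ratio of 0.318 (0.206 to 0.477). Whether its counted 3′ reads fall in the deleted part is not given in the sources used here, so this count alone does not check the deletion. All 7 T cell markers examined were well counted with a ratio above 1, and for 6 of them the interval lay wholly above 1. They ran from *Cd4* with 1489 and 1342 reads to *Cd3d* with 3662 and 7475. The ratio of *Cd4* was 1.02 (0.944 to 1.10), which includes 1. Markers of other cells mostly had a ratio above 1 too. The 5 B cell genes summed to 42 and 108 reads, with *Pax5* at 0 in both libraries, and 3 of the 4 past the minimum count described below had a ratio above 1. The 6 myeloid genes summed to 113 and 475 reads, and 3 of the 4 past the minimum had a ratio above 1. Of these reads *Marco* held 5 and 289, *Csf1r* 16 and 110, *Lyz2* 22 and 7 and *Adgre1* 0 and 8. The 5 CD8 and NK cell genes summed to 948 and 1477 reads, and all 3 past the minimum had a ratio above 1. *Cd8a* had 322 and 580 reads, a ratio of 2.03 (1.77 to 2.34). *Cd8b1* had 122 and 274 reads, a ratio of 2.53 (2.04 to 3.16), and *Nkg7* had 492 and 615. Below the minimum were *Klrb1c* at 12 and 0 and *Ncr1* at 0 and 8. Their part in the results below was not tested.

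With TMM scaling, most ribosome biogenesis genes had lower counts after RV-Cre than with the control retrovirus, mostly by less than 2-fold. Scaling to *Gapdh* left 26 of the 54 lower. In bulk RNA, fewer cells of a type and less RNA per cell cannot be told apart. The ratio was below 1 for 47 of the 54 members, against 50.4% of all 12112 genes that passed a minimum of 15 normalized reads (a log2 value of 4) in at least 1 library. The median log2 ratio of the members was -0.41, while that of all genes past the minimum was -0.01. The counting interval lay wholly below 1 for 45 members, where 38.1% of all genes did so, and wholly above 1 for 4 members, where 36.7% of all genes did so. A difference of at least 2-fold was found for few of them. It was reached downwards by 5 members, or 9.26%, close to the 12.3% of all genes, and upwards by 0 members, where 14.2% of all genes reached it. All 54 members passed the minimum, and their mean log2 values ran from 8.65 to 15.45. Of the 5012 genes in that range of counts, 55.7% had a ratio below 1, 47.6% had an interval wholly below 1 and 35.5% one wholly above 1. In that range a 2-fold difference was reached downwards by 7.34% and upwards by 3.31%, and the median log2 ratio was -0.08.

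**Figure D1:**
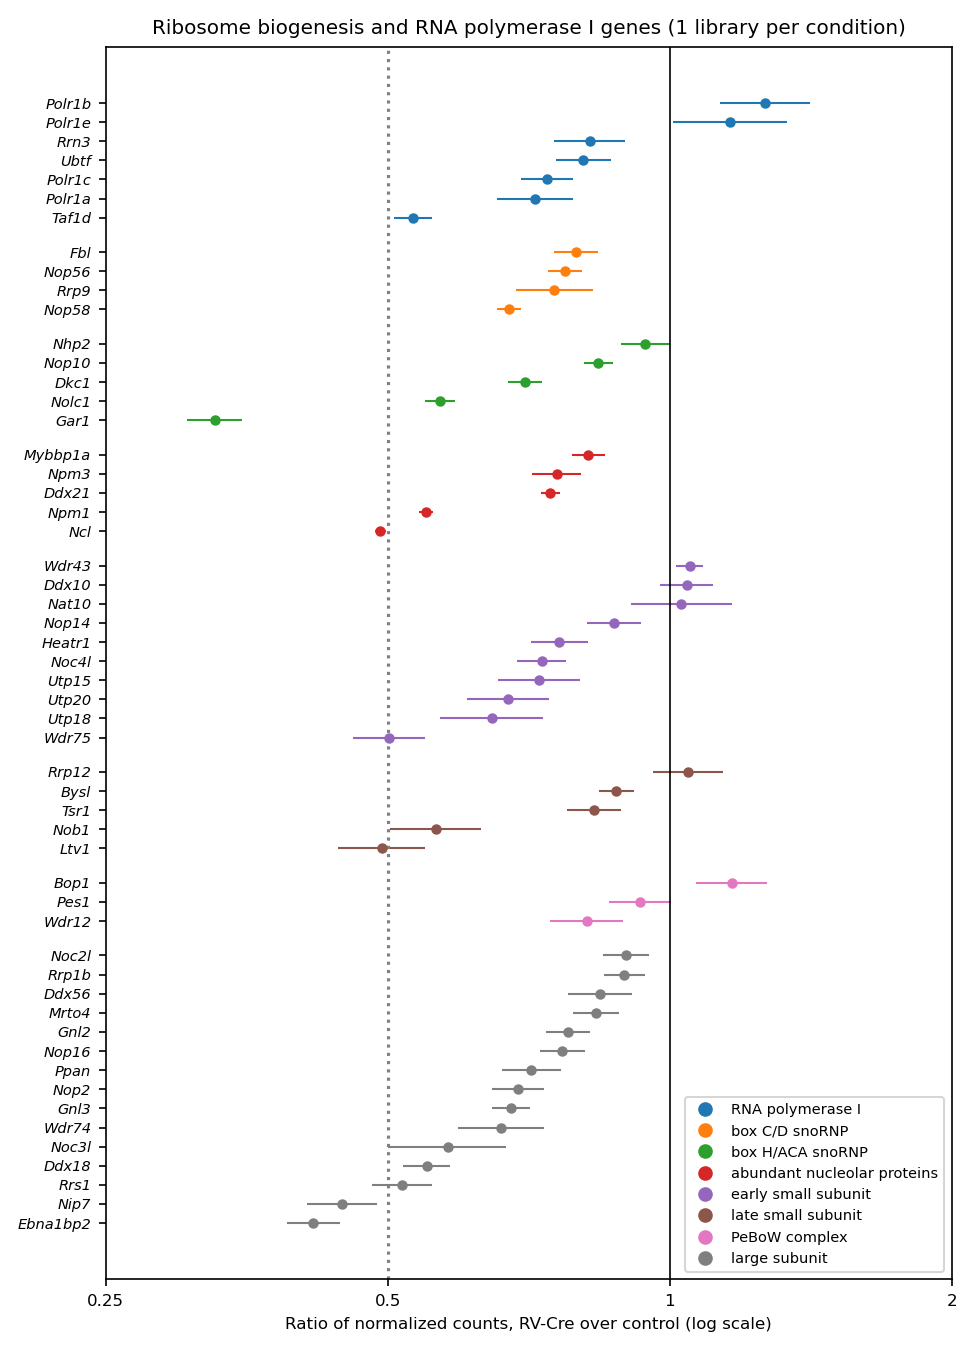
Ratio of normalized counts (RV-Cre over control, log axis) for each of the 54 members, grouped by role. Points are the 1 ratio available per gene, bars are exact 95% counting intervals, the solid line marks a ratio of 1 and the dotted line 0.5. With TMM scaling 47 points lie left of 1, from *Gar1* at 0.327 upwards, and the right-most point is *Polr1b* at 1.26. With scaling to *Gapdh* 26 lie left of 1.

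The direction of the members was lost with scaling to *Gapdh* and held with the other scalings. With those, their median log2 ratio lay between -0.42 (DESeq2 size factors) and -0.29 (quantile normalization), and 45 to 47 of the 54 were below 0. *Gapdh* had 956 and 634 reads, a log2 ratio of -0.42, and scaling to it moved the median of all genes from -0.01 to 0.41. The median of the members moved with it to 0.01, and 26 members had a ratio below 1. With that scaling, 21 members lay above 1 and 20 below 1 beyond counting error, in place of 4 and 45, and over all genes 2960 were 2-fold or more higher and 780 lower, in place of 1720 and 1491. Set against the median of all genes, 47 of the 54 members were lower with TMM scaling. Every other scaling but quantile normalization multiplies all genes of a library by 1 factor, so it leaves that order as it is by construction and is no check of it. Quantile normalization, which could have changed the order, also put 47 members below the median of all genes, with a distance between the medians of -0.34 in place of -0.40. The median of the members lay at the 30.5th percentile of all genes past the minimum. *Gar1*, the lowest, lay at the 5.36th percentile and *Polr1b*, the highest, at the 67.4th. The ratios below are those with TMM scaling.

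**Figure D2:**
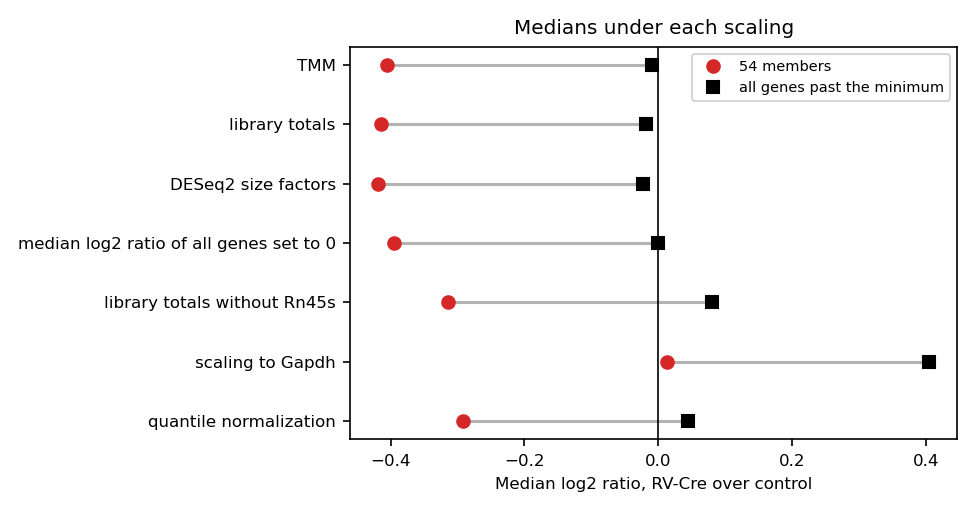
Median log2 ratio (RV-Cre over control) of the 54 members (red circles) and of all genes past the minimum (black squares) under each of 7 scalings. Both medians shift together, to 0.01 and 0.41 with scaling to *Gapdh*, and the distance between them can differ only with quantile normalization, where it is -0.34 in place of -0.40 with TMM scaling.

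The members varied less among themselves than the genes in their range of counts did. Those genes were less abundant, with a median of the mean log2 values of 9.97 against 10.89, so counts were not matched in this comparison. The standard deviation of the log2 ratio was 0.39 across the members and 0.62 across the 5012 genes in their range of counts, and the distance between the quartiles was 0.37 and 0.75. The log2 ratio showed little relation to abundance across the 54 members, which share these libraries (Spearman's rho -0.06, Pearson's r -0.17). Together the members took 1.94% (1.93% to 1.94%) of the reads in the control library and 1.25% (1.25% to 1.26%) in the RV-Cre library. *Ncl* and *Npm1* held much of that share. Without them the share was 1.18% (1.17% to 1.19%) and 0.868% (0.863% to 0.873%).

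**Figure D3:**
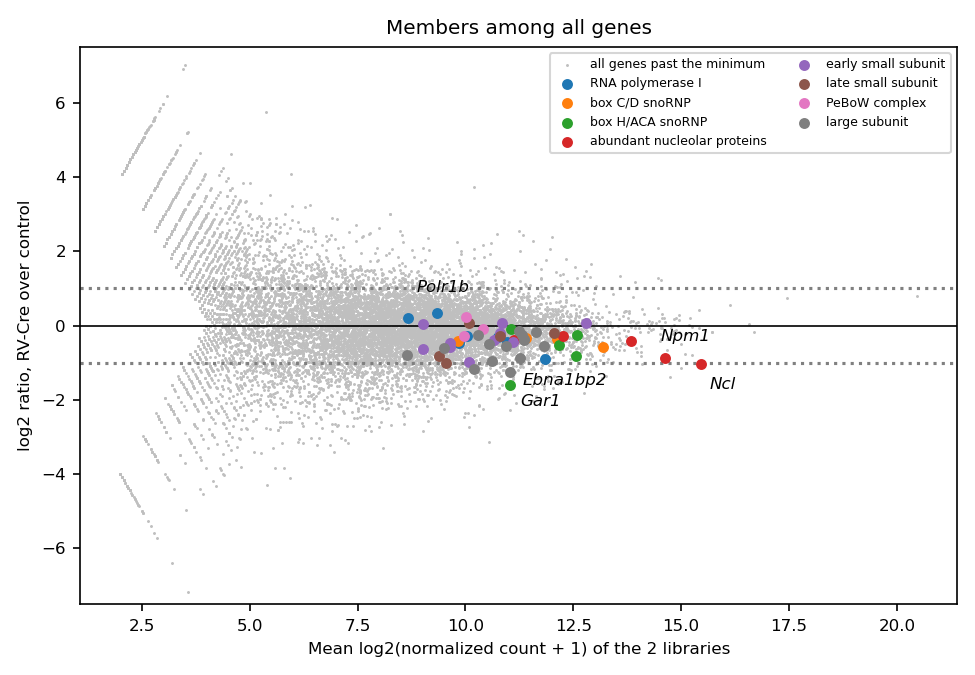
Log2 ratio (RV-Cre over control) against the mean log2(normalized count + 1) of the libraries for the 12112 genes past the minimum (grey) and the 54 members (coloured by role). Dotted lines mark a 2-fold difference. With TMM scaling the members form a band just under 0, with a median of -0.41, that runs across the well-counted part of the plot (their median was 0.01 with scaling to *Gapdh*).

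The promoters of the members were examined for short motifs, since members that move together may share sequence that the choice of genes did not use. RefSeq promoter windows of 300 bases (250 before and 50 after the start site, build GRCm38.p6) were matched by symbol for 48 members. *Bop1*, *Fbl*, *Gnl2*, *Npm1*, *Rrp12* and *Rrs1* had no window. Motifs were searched on both strands, with 1 window per gene. The E-box CACGTG, the sequence that MYC with its partner MAX is known to bind, was in 9 of the 48 member windows (18.8%), in 7.24% of the 27025 windows of all genes, and in 10.4% of the 9156 windows of genes past the minimum. The related CACGCG was in 18 member windows (37.5%), in 9.36% of all windows and in 17.9% of those of genes past the minimum. Either of them was in 25 member windows (52.1%), in 15.5% of all windows and in 26.2% of those past the minimum. CCGGAAG, a site of ETS factors, was in 18 (37.5%), 9.12% and 19.1% in the same order. The GC box GGGCGG was in 36 of the 48, in 35.9% of all windows and in 64.1% of those past the minimum, and TATAAA in 3 (6.25%), 14.2% and 6.92%. None of these shares has a test. GC content of the windows had a median of 58.2% in the members, 52.7% in all genes and 60.7% in genes past the minimum. Matches of different motifs shared bases in 2 member windows, those of *Tsr1* and *Rrn3*, each time GGGCGG with CCGGAAG. A match is a description of the letters and not a bound site.

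The 10 E-boxes in the 9 member windows are shown with up to 10 bases on either side, 5′ to 3′ along the gene. The E-box is in capitals, and its first base is counted from the start site as base 1. They are given because it is the motif of a factor whose own transcript differed between the libraries. *Myc* had 1678 and 315 reads, a ratio of 0.212 (0.187 to 0.239). Any part of MYC in the counts of the members was not tested.
*Nop2*, at base -60, chr6:125131813-125131838, plus strand: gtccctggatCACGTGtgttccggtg
*Utp18*, at base -20, chr11:93885771-93885796, minus strand: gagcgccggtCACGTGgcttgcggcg
*Rrn3*, at base -215, chr16:13780474-13780499, plus strand: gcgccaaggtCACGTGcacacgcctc
*Rrn3*, at base -48, chr16:13780641-13780666, plus strand: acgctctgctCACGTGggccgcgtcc
*Pes1*, at base 3, chr11:3963967-3963992, plus strand: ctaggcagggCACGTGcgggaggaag
*Wdr43*, at base 18, chr17:71616222-71616247, plus strand: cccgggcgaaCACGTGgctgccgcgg
*Tsr1*, at base 25, chr11:74898094-74898119, plus strand: acttggtgcaCACGTGgactgcagaa
*Ltv1*, at base 29, chr10:13193094-13193119, minus strand: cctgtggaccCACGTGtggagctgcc
*Utp20*, at base 38, chr10:88826765-88826787, minus strand: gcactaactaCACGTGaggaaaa
*Mybbp1a*, at base 41, chr11:72441357-72441376, plus strand: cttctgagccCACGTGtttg
Within the windows searched, the E-boxes lay from base -60 (*Nop2*) to base 41 (*Mybbp1a*), but for the distal copy of *Rrn3* at base -215. Sequence outside the windows was not searched, so a place near the start site is largely set by the choice of window. Positions of the E-box in the windows of other genes were not compared. The median log2 ratio of the 9 members with an E-box was -0.29 and that of the 39 without it was -0.42. Members with the E-box ran from *Ltv1* at -1.02 to *Wdr43* at 0.07. With and without CACGCG the medians were -0.30 and -0.50, and both of these motifs thus went with the higher median. The other motifs went with the lower one. The medians with and without were -0.51 and -0.39 for CCGGAAG, -0.43 and -0.40 for GGGCGG, and -0.49 and -0.41 for TATAAA, which only 3 members hold. None of these 5 comparisons was tested.

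Whole upstream stretches of 250 bases are given for *Rrn3*, which holds 2 E-boxes, and for *Nop2*, whose E-box lies beside an ETS site and downstream of a GC box. Capitals mark the motifs named above.
*Rrn3*, chr16:13780449-13780698, plus strand: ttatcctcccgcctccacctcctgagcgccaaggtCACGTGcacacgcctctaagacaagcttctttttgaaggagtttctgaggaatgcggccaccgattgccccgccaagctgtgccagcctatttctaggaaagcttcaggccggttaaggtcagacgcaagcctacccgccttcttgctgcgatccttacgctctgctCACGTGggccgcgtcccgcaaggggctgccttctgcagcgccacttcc
*Nop2*, chr6:125131633-125131882, plus strand: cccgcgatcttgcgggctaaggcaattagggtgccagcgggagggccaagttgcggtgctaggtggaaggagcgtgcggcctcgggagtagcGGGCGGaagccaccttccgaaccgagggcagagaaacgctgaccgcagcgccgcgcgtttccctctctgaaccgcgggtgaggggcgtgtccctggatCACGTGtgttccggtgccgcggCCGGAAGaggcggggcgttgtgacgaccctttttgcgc

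The 7 RNA polymerase I genes did not lie together, and the largest subunits of the enzyme differed in direction. *Polr1a*, the largest catalytic subunit, had 1156 and 735 reads, a ratio of 0.717 (0.653 to 0.788). *Polr1b*, the second-largest subunit, which completes the active centre, had 616 and 690 reads, a ratio of 1.26 (1.13 to 1.41). It was the highest of all members, and the intervals of these subunits do not overlap. Of genes in the members' range of counts, 47.6% had an interval wholly below 1 and 35.5% one wholly above 1. No interval of the first kind overlaps one of the second, so a lack of overlap does not set the partners named here and below apart. For pairs that are not on opposite sides of 1, how often intervals of unrelated genes overlap was not computed. *Polr1e*, part of a subcomplex that the polymerase uses in initiation and elongation, had 402 and 413 reads, a ratio of 1.16 (1.01 to 1.33), from the fewest reads of all members. *Polr1c*, which RNA polymerase III also uses, had 2485 and 1629 reads, a ratio of 0.740 (0.695 to 0.788). Of the factors that bring the polymerase to its promoter, *Rrn3*, the initiation factor with the E-boxes shown above, had 1221 and 889 reads, a ratio of 0.822 (0.753 to 0.897). *Ubtf*, which keeps active ribosomal DNA open, had 2044 and 1464 reads, a ratio of 0.808 (0.755 to 0.865). With scaling to *Gapdh* the log2 ratios of *Rrn3* and *Ubtf* were above 0, at 0.13 and 0.11, as was the median of the 7 genes at 0.11 (-0.31 with TMM scaling). *Taf1d*, a subunit of the promoter selectivity factor, was the lowest of the 7, with 5394 and 2543 reads and a ratio of 0.532 (0.507 to 0.558). *Taf1d* overlaps 10 other annotated genes, among them snoRNAs in its introns and *Cep295*, which had 1180 and 590 reads. The product of the polymerase is listed in these tables as *Rn45s*, the ribosomal RNA precursor, and its reads went the other way. It took 8.50% (8.49% to 8.51%) of the control reads and 14.6% (14.58% to 14.62%) of the RV-Cre reads, a ratio of 1.73 (1.72 to 1.73). These libraries are primed on poly(A), which ribosomal RNA largely lacks, so its count is no measure of how much was made.

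The proteins of the box C/D snoRNP, which places methyl groups on ribosomal RNA, had lower counts by similar amounts with TMM scaling (median log2 ratio -0.39, or 0.03 with scaling to *Gapdh*). *Fbl*, which encodes the methyltransferase fibrillarin, had 3219 and 2264 reads, a ratio of 0.794 (0.752 to 0.838). *Nop56* had 5381 and 3683 reads, a ratio of 0.772 (0.740 to 0.806), and its partner *Nop58* had 12086 and 7207 reads, a ratio of 0.673 (0.653 to 0.693). These related scaffold proteins pair within the particle. Their intervals do not overlap, and how often those of unrelated genes on the same side of 1 would was not computed. *Rrp9*, which binds the C/D RNA at the heart of the small subunit processome, had 1112 and 742 reads, a ratio of 0.753 (0.685 to 0.827). Scaling to *Gapdh* put *Fbl* at a log2 ratio of 0.08.

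The core proteins of the box H/ACA snoRNP, which turns uridine into pseudouridine and whose proteins also belong to telomerase, were spread far apart, and with *Nolc1* had a median log2 ratio of -0.51 (-0.09 with scaling to *Gapdh*). *Gar1* had the lowest ratio of all 54 members, with 3892 and 1127 reads and a ratio of 0.327 (0.306 to 0.349). *Dkc1*, the pseudouridine synthase, had 5865 and 3643 reads, a ratio of 0.701 (0.672 to 0.731). *Nop10* had 7132 and 5301 reads, a ratio of 0.839 (0.809 to 0.869). *Nhp2* had 2330 and 1945 reads, a ratio of 0.942 (0.887 to 1.001), which includes 1. The intervals of these 4 subunits of 1 particle do not overlap, and how often those of unrelated genes would was not computed. *Nolc1*, a chaperone that carries snoRNPs through the nucleus, had 8575 and 4322 reads, a ratio of 0.569 (0.548 to 0.590).

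The abundant nucleolar proteins included the member transcripts with most reads, and all 5 were below 1 beyond counting error with TMM scaling (3 of 5 were below 1 with scaling to *Gapdh*). *Ncl*, which encodes nucleolin, a binder of nascent ribosomal RNA, had 68014 and 29596 reads, a ratio of 0.491 (0.484 to 0.498). *Npm1*, which encodes the histone and ribosome chaperone nucleophosmin, had 36329 and 17678 reads, a ratio of 0.549 (0.539 to 0.559). *Npm1* is known to have processed copies in the genome that can share its reads. *Ddx21*, a helicase of RNA polymerase I and II transcription, had 18144 and 11990 reads, a ratio of 0.746 (0.729 to 0.763). These are the 3 members with most reads, so their intervals are the narrowest. *Npm3*, a relative of *Npm1*, had a ratio of 0.757 from 2738 and 1837 reads. *Mybbp1a*, a nucleolar protein that also binds transcription factors, had 5735 and 4160 reads, a ratio of 0.819 (0.786 to 0.852), and a log2 ratio of 0.13 with scaling to *Gapdh*. *Ncl* took 0.493% (0.489% to 0.497%) of the control reads and 0.241% (0.238% to 0.243%) of the RV-Cre reads.

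The 10 factors of early small subunit processing, most of them parts of the large processome that forms on the growing precursor, had a median log2 ratio of -0.42, or -0.01 with scaling to *Gapdh*. Among the processome proteins that are needed already for transcription of the ribosomal DNA, the ratios ranged widely. *Wdr75* had 1636 and 727 reads, a ratio of 0.501 (0.459 to 0.548), just outside the 2-fold limit. *Utp15* had a ratio of 0.725 and *Heatr1* one of 0.762, from 999 and 642 and from 1985 and 1341 reads. *Wdr43*, which belongs to the same subcomplex, had 7349 and 6842 reads, a ratio of 1.05 (1.02 to 1.09). *Wdr43* overlaps 3 annotated snoRNAs in its span, of which *Snord92* had 36 and 16 reads. The remaining processome members *Utp18*, *Utp20*, *Noc4l* and *Nop14* had ratios of 0.646, 0.672, 0.730 and 0.873, each beyond counting error. *Ddx10*, a helicase, had 1910 and 1764 reads, a ratio of 1.04 (0.976 to 1.11). *Nat10*, which acetylates ribosomal RNA, had 544 and 496 reads, a ratio of 1.03 (0.909 to 1.16), so that no difference was detectable at this depth for these 2 genes.

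Late small subunit factors, which act on the particle shortly before and after export, were divided, with a median log2 ratio of -0.27 (0.15 with scaling to *Gapdh*). *Ltv1*, an assembly factor that leaves the particle in the cytoplasm, had 1129 and 493 reads, a ratio of 0.493 (0.442 to 0.548). *Nob1*, the nuclease that makes the final cut of the small subunit RNA, had 949 and 473 reads, a ratio of 0.562 (0.503 to 0.629). Both lay well below *Tsr1* and *Bysl*. *Tsr1*, a GTPase-like factor, had a ratio of 0.830 from 2088 and 1535 reads, and *Bysl*, which encodes bystin, one of 0.877 from 4814 and 3740 reads. *Rrp12*, an export factor, had 1119 and 1037 reads, a ratio of 1.05 (0.960 to 1.14), which includes 1.

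The PeBoW complex, a trio of proteins needed for large subunit RNA processing, lay nearest to 1, with a median log2 ratio of -0.10 (0.31 with scaling to *Gapdh*). *Bop1* had 1013 and 1046 reads, a ratio of 1.17 (1.07 to 1.27), the second-highest of all members. Its partner *Pes1* had 1494 and 1232 reads, a ratio of 0.931 (0.862 to 1.004). *Wdr12* had 1177 and 850 reads, a ratio of 0.815 (0.745 to 0.891), and a log2 ratio of 0.12 with scaling to *Gapdh*. The interval of *Bop1* does not overlap those of its partners, whereas those of *Pes1* and *Wdr12* do overlap each other. *Bop1* overlaps *Mroh1*, which had 359 and 344 reads, and *Scx*, which had 0 and 2.

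All 15 large subunit factors outside PeBoW had lower counts beyond counting error with TMM scaling, with a median log2 ratio of -0.54 (-0.12 with scaling to *Gapdh*). *Ebna1bp2*, an early assembly factor, had 3443 and 1270 reads, a ratio of 0.416 (0.390 to 0.444). *Nip7*, a small protein of the pre-ribosome, had 1859 and 736 reads, a ratio of 0.447 (0.410 to 0.487). Of the other members *Gar1* alone lay below these. *Rrs1*, which helps to bring in the smallest ribosomal RNA of the large subunit, had 2302 and 1057 reads, a ratio of 0.518 (0.481 to 0.558). The helicase *Ddx18* had 3521 and 1717 reads, a ratio of 0.550 (0.519 to 0.583). *Noc3l* had 559 and 287 reads, a ratio of 0.579 (0.501 to 0.669), and its binding partner *Noc2l* had 2718 and 2162 reads, a ratio of 0.898 (0.848 to 0.950). The intervals of this pair do not overlap, and how often those of unrelated genes on the same side of 1 would was not computed. *Noc2l* was at a log2 ratio of 0.26 with scaling to *Gapdh*. *Nop2*, a methyltransferase of the large subunit RNA whose promoter is shown above, had 2509 and 1531 reads, a ratio of 0.689 (0.646 to 0.734). The GTPases *Gnl3*, which encodes nucleostemin, and *Gnl2* had ratios of 0.677 and 0.779. The remaining factors were *Wdr74* at 0.661, *Ppan* at 0.712, *Nop16* at 0.768, *Mrto4* at 0.834, *Ddx56* at 0.842 and *Rrp1b* at 0.895.

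The 5 members at least 2-fold lower were thus *Gar1*, *Ebna1bp2*, *Nip7*, *Ncl* and *Ltv1*, of which *Ncl* and *Ltv1* lay just inside the limit at 0.491 and 0.493 and *Wdr75* just outside at 0.501. The interval lay wholly below 0.5 for 4 members. Scaling by library totals without *Rn45s* left 3 members at least 2-fold lower and scaling to *Gapdh* left 1. In RefSeq, 22 members overlap another annotated gene, and no source used here says whether counting took account of strand, so reads of such pairs cannot be told apart. *Noc2l* with 2718 and 2162 reads overlaps *Samd11* with 2451 and 1861, and *Gnl2* with 3150 and 2174 reads overlaps *Dnali1* with 1746 and 1267. *Bysl* overlaps *Ccnd3* with 3802 and 2948 reads, and *Nat10* overlaps *Caprin1* with 4466 and 2617. For the 32 members that overlap no annotated gene, the ratio was below 1 for 29, the median log2 ratio was -0.44 and 3 were at least 2-fold lower.

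Other ribosome biogenesis factors that were not members had a median between those of the members and of all genes. Of 77 such genes listed by role, all past the minimum, 57 had a ratio below 1 and 47 were below 1 beyond counting error, with a median log2 ratio of -0.22. A 2-fold difference was reached downwards by 4 of them and upwards by 1. For the 8 other RNA polymerase I genes the median was -0.20, from *Polr1d*, a subunit shared with RNA polymerase III, with 3823 and 1859 reads and a ratio of 0.549, to *Taf1c*, of the promoter selectivity factor, with 268 and 540 reads and a ratio of 2.27 (1.96 to 2.64). *Taf1c* and *Taf1d*, which sit in the same factor, thus lay on opposite sides of 1. The 34 other small subunit factors had a median of -0.26, from *Utp11l* at -1.15 to *Nol6* at 0.48. The 35 other large subunit factors had a median of -0.20, from *Nmd3*, the export adaptor of the large subunit, at -1.54 with 963 and 292 reads to *Lsg1*, which releases Nmd3 in the cytoplasm, at 0.27 with 1033 and 1101 reads.

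**Figure D4:**
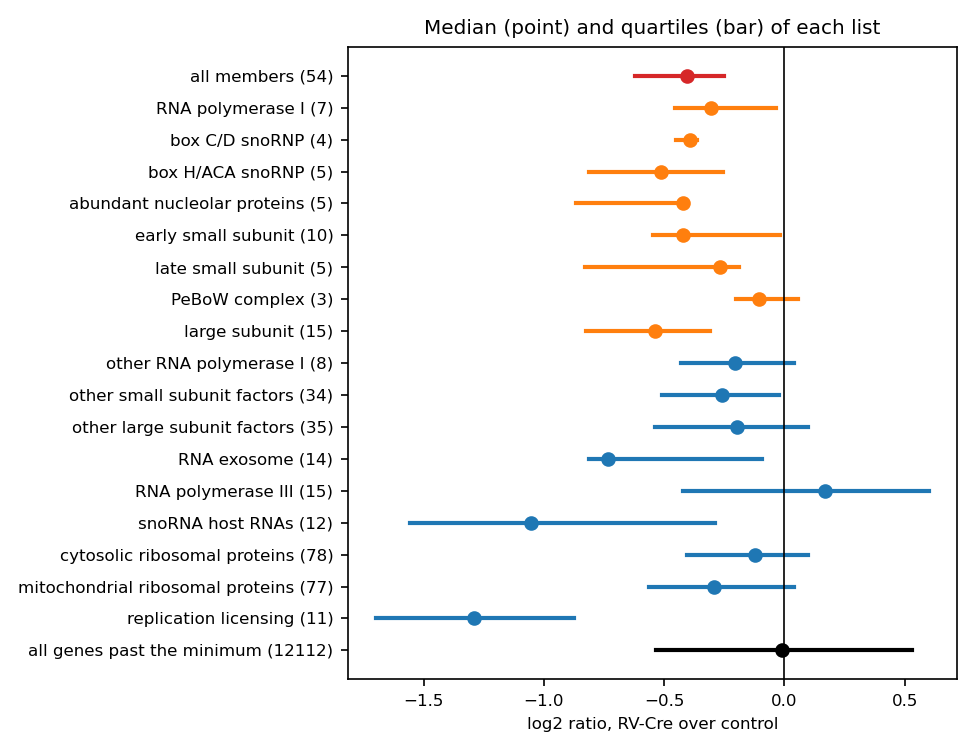
Median (point) and quartiles (bar) of the log2 ratio (RV-Cre over control, TMM scaling) in the members (red), their roles (orange), other lists (blue) and all genes past the minimum (black), with the number of genes in brackets. The roles range from -0.54 (large subunit) to -0.10 (PeBoW). Scaling to *Gapdh* moves the median of all genes from -0.01 to 0.41 and puts several of them above 0.

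The proteins of the cytosolic ribosome lay closer to all genes than the members did. Of 78 cytosolic ribosomal protein genes past the minimum, 47 had a ratio below 1, the median log2 ratio was -0.12 (from *Rps2* at -1.39 to *Rpl39l* at 0.60) and 3 were at least 2-fold lower. Beyond counting error, 46 of the 78 lay below 1 and 25 above 1. Their summed reads had a ratio of 0.973, and those of the 54 biogenesis members a ratio of 0.651, or 0.740 without *Ncl* and *Npm1*. Of 77 mitochondrial ribosomal protein genes, 55 had a ratio below 1 and 7 (9.09%) were at least 2-fold lower. Their median was -0.29 (from *Mrps28* at -2.08 to *Mrps25* at 0.64), between those of the members and of the other biogenesis factors. With 1 library per condition these differences between lists have no test. Genes of replication licensing, which cells use before each division, differed more. All 11 were below 1 and 7 were at least 2-fold lower, with a median of -1.29, from *Mcm4* with 5068 and 1062 reads to *Mcm7* with 8981 and 4842, and the part of cell division in the counts of the biogenesis genes was not tested.

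**Figure D5:**
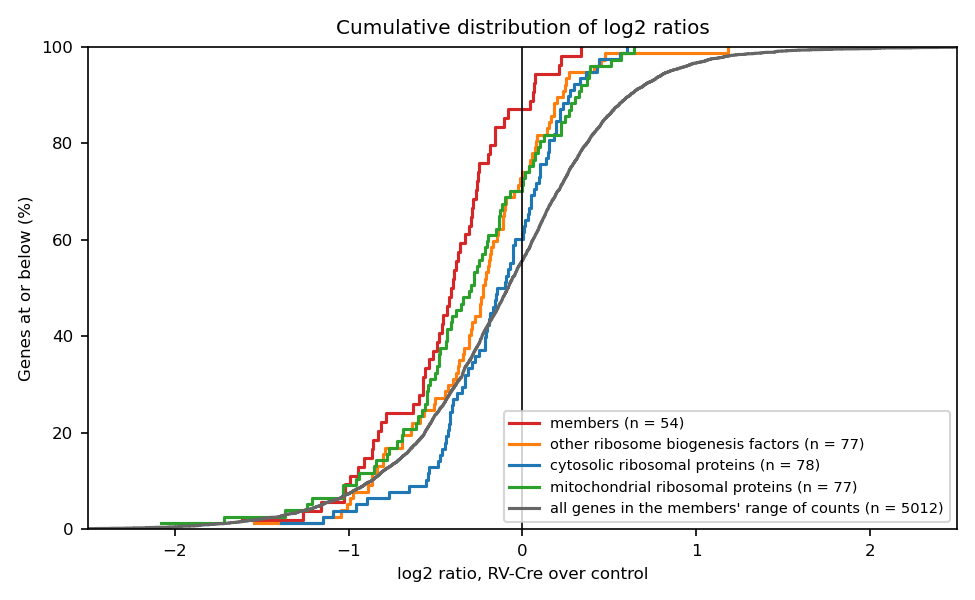
Share of genes (%) at or below each log2 ratio (RV-Cre over control, TMM scaling) for the 54 members, 77 other ribosome biogenesis factors, 78 cytosolic and 77 mitochondrial ribosomal protein genes and the 5012 genes in the members' range of counts. The curve of the members is left of that of the 5012 genes through its middle, with medians of -0.41 and -0.08, and their lower tails meet. Scaling to *Gapdh* would move all curves to the right by 0.42.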

How the data were processed

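The authors prepared 1 QuantSeq 3′ library per condition from 500 ng of total RNA and deposited raw counts, the number of reads per gene symbol, with no normalization. The submitters' processing notes name bcl2fastq 2.20.0.422, Bowtie2, bedtools and the build mm10. Options, annotation and use of strand are not given in the sources used here. From the tables (23282 rows, of which 79 share a symbol with another row and were left out of lists), TMM factors were computed with edgeR 4.0.16 (R 4.3.3). The size factors were 1.06 for the control and 0.941 for RV-Cre. Counts were compared as log2(normalized count + 1) with a minimum of 4 in at least 1 library. Exact intervals came from scipy 1.17.1. They and the depth cover counting error only. Reads carry no molecular identifiers, so copies of 1 molecule cannot be told apart, and the intervals can be too narrow. Procedures were tested on simulated data.

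The members, gene lists, motifs and alternatives were chosen with earlier results of these data known. Named genes were the RNA polymerase I members, members past 2-fold, the 5 highest and 5 lowest ratios, the 3 with most and 2 with fewest reads, the extremes of each role and list, and *Ptk2*, *Rn45s*, *Myc* and *Gapdh*. Other members and overlapping genes were named after their values were seen. Names, spans and promoters came from RefSeq GRCm38.p6, which shares its coordinates with mm10 and matched all 54 members. Alternatives were other scalings (among them DESeq2 1.42.0 size factors), pseudocounts, minimums, fold limits and intervals. Protein sequences were not used here.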

Additional observations from a re-analysis of the deposited data

How the results depend on the processing

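No paired analysis was possible because a single library stood for each condition. With scaling to *Gapdh*, the members' median log2 ratio was 0.0128, and 26 of the 54 members had a ratio below 1. Beyond counting error 21 members lay above and 20 below 1, and 1 was at least 2-fold lower. Of 25 members followed by name across settings, 6 were below 1 beyond counting error with TMM scaling and above 0 with this one. They were *Fbl* (0.0848), *Mybbp1a* (0.13), *Noc2l* (0.26), *Rrn3* (0.13), *Ubtf* (0.11) and *Wdr12* (0.12), which the shift of all genes by construction gives. *Gapdh* itself rests on 956 and 634 reads. Quantile normalization gave a median of -0.29, and it allows no counting interval. The count of members at least 2-fold lower, 5 in the report, was 3 with library totals without *Rn45s*, 3 without members that overlap another gene, 15 at a fold of 1.5 and 1 at a fold of 3. Library totals, DESeq2 size factors, median centring, other pseudocounts, other minimums and a 99% interval left the members' median, the counts of members beyond 2-fold and those beyond counting error within 1.5 times their values in the report. *Ptk2* stayed below 1 in every setting that gave it a value. Over the whole table, the report's counts were 1720 (higher) and 1491 (lower). Without a minimum these were 3265 and 2441, at a fold of 1.5 2847 and 2777, at a fold of 3 1008 and 669, and with scaling to *Gapdh* 2960 and 780. A minimum of 6 gave 734 higher and 1067 lower, and one of 4 in both libraries gave 758 higher and 1097 lower. With a single library per condition, depth limits only the counting error, and variation between cultures is unknown.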

Other observations

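Lists next to the ribosome biogenesis genes were also read, with no test. The RNA exosome, which trims ribosomal RNA precursors and degrades nuclear RNA, had 11 of 14 genes with a ratio below 1 and a median log2 ratio of -0.73, from *Exosc2* with 1087 and 392 reads (ratio 0.407) to *Exosc5* with 831 and 988 reads (ratio 1.34). RNA polymerase III makes the transfer RNAs and the smallest ribosomal RNA. Of 15 genes for it and for factors that act on it, 9 had a ratio above 1 and 6 below. That is 40% below 1, where 50.4% of all genes were. Beyond counting error, 6 lay above 1 and 5 below. The median was 0.17, from *Polr3k* with 999 and 431 reads (ratio 0.487) to the initiation factor *Brf1* with 417 and 696 reads (ratio 1.88).

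The long RNAs that carry snoRNAs in their introns stood further from 1 than the snoRNP proteins. Of the 12 found in the tables, 11 had a ratio below 1 and 7 were at least 2-fold lower (58.3%, against 12.3% of all genes), with a median log2 ratio of -1.05. *Snhg6* had 516 and 103 reads (ratio 0.225) and *Snhg20* 428 and 607 reads (ratio 1.60). *Gas5*, chosen after its values were seen, had 6944 and 5023 reads (ratio 0.816). Such RNAs are spliced to free their snoRNAs, and the reads counted here are those of the host transcripts, so they do not measure snoRNA levels.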
